A study of Homo sapiens with 8 samples.

Results

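The comparison described here set the AL stimulus with diclofenac (AL_DCF) against the AL stimulus without the drug (AL) in HCE-T, a line of human corneal epithelium grown as a barrier in a microfluidic device. It rests on 4 of the 8 RNA sequencing libraries of the series, 2 of AL_DCF and 2 of AL, and on 17445 of 18430 genes, those that passed the expression filter of edgeR. Cells were cultured for 7 days and then kept for 24 h in their condition. AL_DCF cells received 50 µM diclofenac (DCF) in the upper channel while air and medium were moved over them in cycles of 10 s, with 1 s of air, 1 s of liquid and a pause of 8 s. AL cells received the same cycles with no drug. ST_DCF cells received 50 µM DCF in static culture, and ST cells received neither. The growth medium of all groups contained dimethyl sulfoxide, and a separate vehicle control was not analysed here. Each group had 2 libraries (n = 2), described in the study's methods as independent biological samples. All come from 1 cell line, and the extraction note of the labels names myoblasts. Of 9 muscle markers, 6 were at or near 0, MYOD1 and MYOG among them, whereas the 10 epithelial markers summed to 1207 and 1238 CPM (counts scaled to the library total) in AL_DCF and to 1292 and 1320 CPM in AL.

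Diclofenac is a nonsteroidal anti-inflammatory drug that blocks the cyclooxygenases, the enzymes PTGS1 and PTGS2 that start prostaglandin synthesis, and it is used as an eye drop. According to its design, the AL stimulus imitates the drying of the ocular surface. The question of the comparison is therefore which genes the drug moves when the epithelium is under that stimulus, and whether it moves them in static culture as well.

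Total counts were 44507082 and 46369412 in AL_DCF and 44667902 and 41854839 in AL, and all 8 libraries lay between 32880479 and 46369412. Over log2 CPM of all genes tested, the mean distance between an AL_DCF and an AL library was 53.5, close to the 50.2 between the AL_DCF replicates and the 44.8 between the AL replicates. With DCF the whole profile therefore moved by little more than replicates differ. AL replicate 2 stood apart by a few genes. PAEP, which encodes a glycoprotein of reproductive tissues, had 0.224 and 0.153 CPM in AL_DCF, against 0.335 and 22.4 CPM in AL. COL3A1, a fibrillar collagen of connective tissue, had 3.07 and 1.66 CPM in AL_DCF, against 3.29 and 21.7 CPM in AL. The markers of keratocytes and fibroblasts, of which 5 of 9 were measured and KERA, LUM, DCN and ALDH1A1 were at or near 0, summed to 26.5 and 24.2 CPM in AL_DCF and to 30.9 and 75.1 CPM in AL. AL_DCF replicate 2 had a tilt with base composition. Of 5 equal bins of genes by GC content, in the highest, its median log2 difference from AL was −0.23, and that of AL_DCF replicate 1 was −0.00022. The part of the genes high in AL replicate 2 was not tested. Counts of calls without each library, and with an offset for GC content, are given below.

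Few single genes passed the test, and with 2 libraries a group the others are not shown to be unchanged. By edgeR's quasi-likelihood test, 62 of 17445 genes (0.355%) passed an adjusted p of 0.05, with 18 higher (0.103%) and 44 lower (0.252%) in AL_DCF than in AL. In all 62, both AL_DCF libraries lay on one side of both AL libraries, which was also so for 4076 genes (23.4%) above and 3606 genes (20.7%) below among all tested. At least a 2-fold change was fitted for 5 of the genes that rose and 31 of those that fell, so the lower side held most of the large changes. Over all genes the median log2 fold change was 0.01, with 5% of genes below −0.60 and 5% above 0.41. An unadjusted p under 0.05 was reached by 2190 genes (12.6%), 1102 higher and 1088 lower.

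The count of calls depended on which libraries entered the fit. Without AL replicate 2 it was 10 genes, without AL replicate 1 it was 29, and without AL_DCF replicate 2 it was 27. Without AL_DCF replicate 1 it was 92. The static libraries enter the shared estimate of the spread, and the count was 143 and 142 without ST_DCF replicates 1 and 2, and 37 and 34 without ST replicates 1 and 2. DESeq2 called 261 genes, 61 of the 62 among them. With the offset for GC content 74 genes were called, 56 of the 62 among them, and the calls of IL1RL1, ZC3H12C, CREBRF, CD274, COL26A1 and RTEL1 were lost. Each of the 62 kept its direction in every one of these fits.

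**Figure D1:**
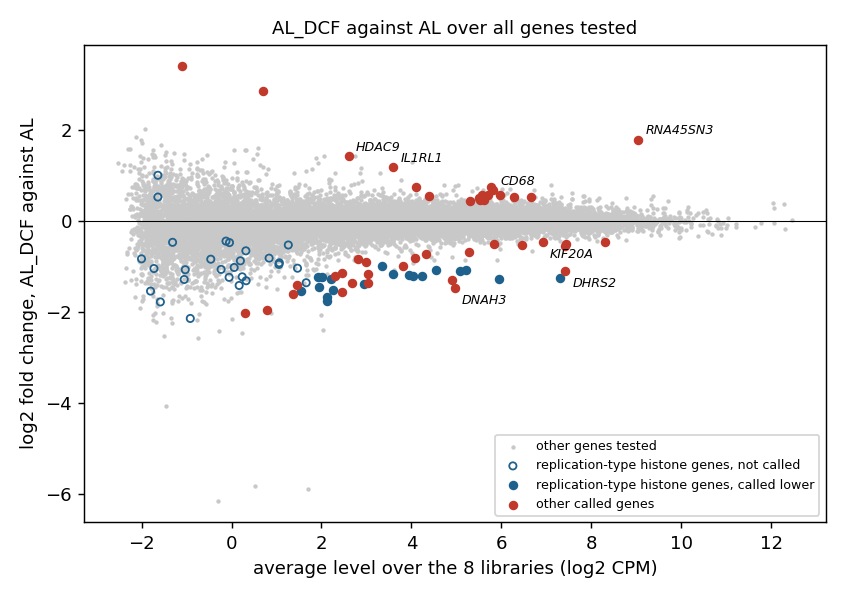
Log2 fold change of AL_DCF against AL (vertical axis) against the average level over the 8 libraries in log2 CPM (horizontal axis) for 17445 genes. Filled blue points are the 19 replication-type histone genes called lower, open blue points are the other histone genes, red points are other called genes and grey points are all other genes. The histone genes form a band near −1.2 over a wide range of levels.

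The largest group of lower genes encoded the histones that are made for DNA replication. These proteins package newly copied DNA, their genes lie in clusters on chromosomes 6 and 1, and most of their mRNAs end in a stem-loop in place of a poly(A) tail. The libraries were made with an mRNA kit, which captures poly(A) RNA, so a lower amount of histone mRNA and a smaller polyadenylated part of it cannot be told apart here. In bulk RNA, fewer cells that make a transcript and less of it per cell cannot be told apart either. Of 46 such genes tested, 19 fell and 0 rose, against 0.252% of all genes that fell. They made up 43.2% of the 44 lower genes. The median log2 fold change over the 46 genes was −1.19, against 0.01 over all genes tested. It was negative for 44 genes. For 39 of them both AL_DCF libraries lay below both AL libraries, which was so for 20.7% of all genes tested. The symbols of this set were completed after the values had been seen. In the list drawn up earlier, 12 of 35 tested genes fell, with a median of −1.08.

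The summed level of the 46 genes was 341 and 339 CPM in AL_DCF, against 735 and 841 CPM in AL. In static culture it was 328 and 320 CPM in ST_DCF, against 354 and 378 CPM in ST. Histone mRNA was thus high in the AL libraries alone, and the AL_DCF libraries lay in the range of the static ones. The AL libraries enter both the comparison with AL_DCF and that with ST, so the 2 differences are not independent.

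Every class of histone contributed. Of 4 H1 genes 1 fell, of 11 H2A genes 6, of 13 H2B genes 6, of 9 H3 genes 3 and of 9 H4 genes 3. Median log2 fold changes were −0.97 for H1, −1.08 for H2A, −1.18 for H2B, −1.32 for H3 and −1.10 for H4. The H2B genes, which code for a core histone, carried most of the reads, with summed levels of 174 and 199.9 CPM in AL_DCF and of 413 and 463 CPM in AL. Summed H3 mRNA was 15.8 and 10.2 CPM in AL_DCF and 32.1 and 35.6 CPM in AL.

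H1-2 (gene identifier 3006) encodes a linker histone and had the smallest p of all genes. It lies on chromosome 6 of GRCh38.p14 from 26055740 to 26056470. Its level was 48.8 and 42.3 CPM in AL_DCF, against 107 and 113 CPM in AL, so that both drug-treated libraries held less than either AL library. The means were 45.5 ± 4.6 and 110.0 ± 3.72 CPM (SD, n = 2 each), and the log2 fold change was −1.27 ± 0.09 (SE, edgeR quasi-likelihood adjusted p = 0.00035). In static culture H1-2 had 49.6 and 44.0 CPM with DCF and 44.8 and 47.3 CPM without, which overlap.

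H2BC12 lies on chromosome 6 from 27138293 to 27146858 and was the most abundant of the replication-type histone genes in CPM. It had 105 and 130 CPM in AL_DCF, against 269 and 297 CPM in AL. Its log2 fold change was −1.27 ± 0.10 (edgeR quasi-likelihood adjusted p = 0.000364). H2BC21 lies in the cluster on chromosome 1 from 149884459 to 149886682. It had 13.1 and 13.7 CPM in AL_DCF, against 29.1 and 33.2 CPM in AL. H2BC21 thus fell by 1.22 ± 0.11 on the log2 scale (adjusted p = 0.000839, same test). H3C4 had the lowest fitted log2 fold change of the called histone genes, −1.76 ± 0.19, with 2.78 and 2.23 CPM in AL_DCF against 7.76 and 9.23 CPM in AL. H4C8 followed with −1.67 ± 0.21, from 2.89 and 2.32 CPM in AL_DCF against 7.04 and 9.51 CPM in AL.

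Not all histone calls were equally firm. H1-2, H2BC12, H2BC21, H2BC5 and H4C15 were called in 20 of 20 other settings, a count that leaves out the added fold threshold and the exact test at unadjusted p. H3C4 and H2BC11 lost the call without AL replicate 2, and H4C8 and H2AC6 lost it without AL replicate 2 or AL_DCF replicate 2. Without AL replicate 2, 5 histone genes were called and the median over the family was −1.03. Without AL_DCF replicate 2, 9 were called with a median of −1.11, and without AL replicate 1, 12 with a median of −1.32. With an offset for GC content 19 were called, at a median of −1.14. H2AC18 and H2AC19, and likewise H4C14 and H4C15, are near-identical copies on chromosome 1 between which reads can be split, so their separate values are uncertain. H2AC18 and H2AC19 lost the call without AL replicate 2, and H4C14 without AL_DCF replicate 2, either AL replicate or either ST replicate.

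**Figure D2:**
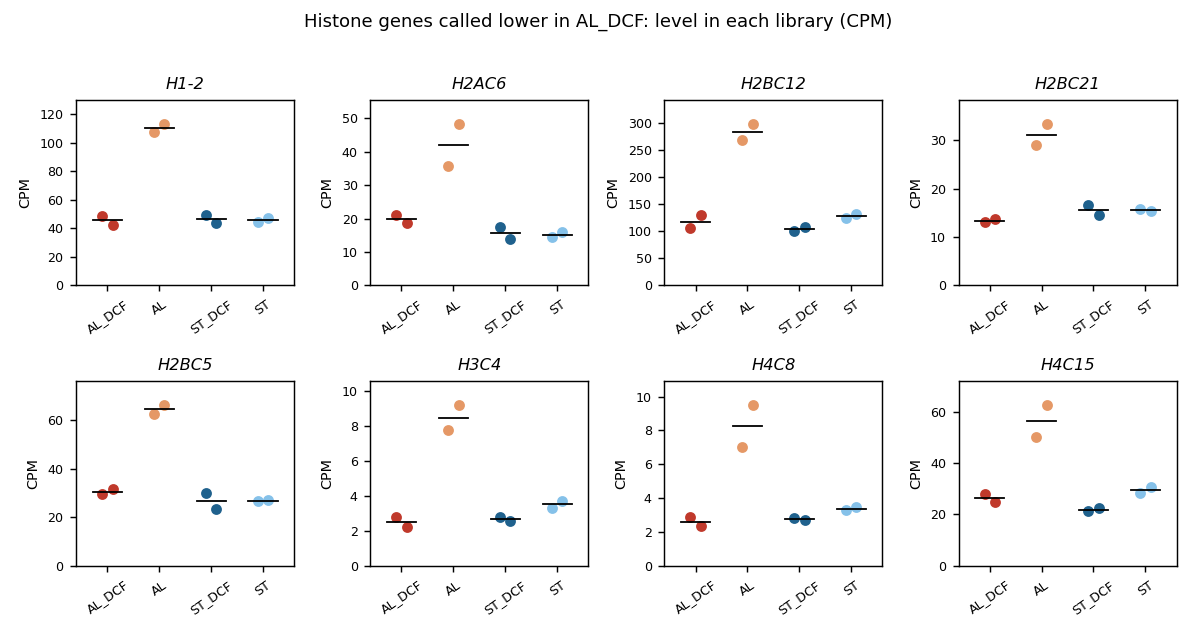
Level in CPM (vertical axes, from 0) of 8 histone genes called lower, with 1 point for each library and a bar for the mean of the 2 libraries, in AL_DCF, AL, ST_DCF and ST. H1-2 shows the pattern of the family, with 48.8 and 42.3 CPM in AL_DCF, 107 and 113 CPM in AL, and 44.0 to 49.6 CPM in the 4 static libraries.

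The upstream bases of 4 of these genes are shown because members of different clusters and classes fell together. They are the 250 bases before the annotated start, from RefSeq on GRCh38.p14, 5′ to 3′ on the strand of the gene, and all 4 genes lie on the minus strand. Capitals mark the octamer ATTTGCAT, known from H2B promoters, and the box CCAAT, each searched on both strands, so that ATTGG is the second on the other strand. No octamer overlapped a CCAAT box in these 4. The stretch of H2BC11 also reaches from that gene to H2AC11, which runs the other way from 27133043 and so holds the outermost bases of the stretch. H2AC11 fell as well, a call lost without any single AL_DCF, AL or ST library. The regions are chr6:27146859-27147108 for H2BC12, chr1:149886683-149886932 for H2BC21, chr6:27132796-27133045 for H2BC11 and chr6:26056471-26056720 for H1-2.
H2BC12: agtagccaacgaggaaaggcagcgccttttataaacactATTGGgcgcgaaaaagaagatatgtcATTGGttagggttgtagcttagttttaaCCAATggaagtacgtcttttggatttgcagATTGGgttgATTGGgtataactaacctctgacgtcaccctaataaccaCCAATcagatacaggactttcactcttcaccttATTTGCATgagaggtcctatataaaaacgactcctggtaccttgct
H2BC21: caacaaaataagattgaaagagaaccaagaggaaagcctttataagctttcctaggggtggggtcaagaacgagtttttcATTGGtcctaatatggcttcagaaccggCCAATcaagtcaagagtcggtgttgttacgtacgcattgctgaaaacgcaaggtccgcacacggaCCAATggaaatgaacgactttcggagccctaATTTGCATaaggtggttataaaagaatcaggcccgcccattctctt
H2BC11: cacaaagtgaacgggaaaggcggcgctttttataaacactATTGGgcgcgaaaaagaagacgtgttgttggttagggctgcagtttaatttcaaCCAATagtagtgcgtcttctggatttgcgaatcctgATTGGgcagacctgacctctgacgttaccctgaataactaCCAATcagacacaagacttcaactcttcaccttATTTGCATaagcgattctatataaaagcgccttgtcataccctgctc
H1-2: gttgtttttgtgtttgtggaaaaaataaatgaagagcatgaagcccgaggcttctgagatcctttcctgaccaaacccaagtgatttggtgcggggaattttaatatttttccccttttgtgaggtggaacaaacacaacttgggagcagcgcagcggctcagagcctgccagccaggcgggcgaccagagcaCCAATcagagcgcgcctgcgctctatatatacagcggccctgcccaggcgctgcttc

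The octamer began 46 bases before the start in H2BC12 and H2BC21 and 47 bases before it in H2BC11, and it was not in the window of H1-2. It was present in 19 of 44 tested histone genes with a promoter entry (43.2%), against 1.66% of 27305 promoters of the same length. In the 12856 promoters of genes tested, the share was 1.4%. Among tested histone genes the octamer was in 10 of 13 H2B and 8 of 11 H2A promoters, in 1 of 8 H3 promoters and in 0 of 8 H4 and 0 of 4 H1 promoters. The CCAAT box was in 37 of the 44 (84.1%), against 33% of all promoters and 34.5% of those of genes tested. It was in 1 of the 8 H4 promoters. Of the 19 genes that fell, 9 had the octamer (47.4%) and 16 the CCAAT box (84.2%), shares like those of all histone genes tested. H1-2 thus had the box without the octamer, and of the 3 H4 genes that fell 0 had the octamer and 0 the box. A match of these letters is a description and not a site of binding.

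Each histone cluster is described here from its first to its last called histone gene. The calls therefore lie within these stretches by construction, and the shares called in them depend on that choice. Between 26055740 and 26285534 on chromosome 6, 9 of 19 tested histone genes fell, together with the pseudogene RPS10P1 and the long noncoding RNA LOC105374986, 2 of 5 other genes tested there. Both lost the call without AL_DCF replicate 2 or either AL replicate, RPS10P1 also without either ST replicate and LOC105374986 without AL_DCF replicate 1. The 5 other genes of this stretch had a median log2 fold change of −2.03. Reads of such neighbours cannot always be told from those of the histone genes around them. Between 27132316 and 27810536 on the same chromosome, 5 of 7 histone genes fell and 0 of 7 other genes, whose median log2 fold change was 0.04. Between 149832657 and 149886682 on chromosome 1, 5 of 7 histone genes fell and 0 of 2 others, whose median was −0.62.

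H2AW, an H2A gene on chromosome 1 outside these clusters, fell as well, with 16.7 and 16.7 CPM in AL_DCF against 25.1 and 29.9 CPM in AL (log2 fold change −0.72 ± 0.11, edgeR quasi-likelihood adjusted p = 0.025). The call was lost without either AL_DCF replicate, AL replicate 2 or ST replicate 2. H1-10 and H2AZ1, histone genes that are also expressed outside replication, did not pass the test. H1-10 had 449 and 370.0 CPM in AL_DCF and 518 and 585 CPM in AL (log2 fold change −0.43, adjusted p = 0.154), and H2AZ1 had 361 and 441 CPM in AL_DCF and 424 and 419 CPM in AL, which overlap. SLBP, whose protein binds the histone stem-loop, had 105 and 105 CPM in AL_DCF and 114 and 109 CPM in AL (log2 fold change −0.09, adjusted p = 0.685).

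Histones are made in S phase, so genes of the cell cycle were set beside them. Of 28 genes for the G1/S transition and DNA replication, 0 were called (0.355% of all genes were), and the median log2 fold change was 0.07. MCM3, a subunit of the replicative helicase, had the smallest p among them, with 386 and 397 CPM in AL_DCF and 337 and 345 CPM in AL (log2 fold change 0.20, adjusted p = 0.308). Of 26 genes of G2/M and mitosis, 1 was called lower and 0 higher (0.252% and 0.103% of all genes were). The median of this list was −0.16, 23 of its genes were negative, and 12 had an unadjusted p under 0.05 on the lower side (6.24% of all genes had). The 2 phases thus lay on opposite sides of 0, with most members within the range of all genes.

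KIF20A, a kinesin needed for cytokinesis, was the mitotic gene that fell. It had 106 and 109 CPM in AL_DCF, against 145 and 152 CPM in AL, and 117 and 117 CPM in ST_DCF, against 112 and 108 CPM in ST. Its log2 fold change was −0.47 ± 0.07 (edgeR quasi-likelihood adjusted p = 0.0238), and the call was kept without ST_DCF replicate 1 or 2 and lost without any other library. PLK1, a kinase of mitotic entry, had 64.3 and 63.0 CPM in AL_DCF against 81.1 and 92.1 CPM in AL and missed the threshold (log2 fold change −0.44, adjusted p = 0.0505). CCNB2, a mitotic cyclin, had 77.4 and 80.7 CPM in AL_DCF against 100.5 and 104 CPM in AL (adjusted p = 0.0832).

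Outside the histones, DHRS2, DNAH3 and the noncoding RNA LOC105374985 were called in the same 20 of 20 settings. DHRS2, which encodes a short-chain dehydrogenase/reductase, lies on chromosome 14 from 23630115 to 23645639. It had 54.6 and 63.1 CPM in AL_DCF, against 126 and 128 CPM in AL, and its log2 fold change was −1.11 ± 0.09 (edgeR quasi-likelihood adjusted p = 0.000364). In static culture it had 266 and 251 CPM in ST_DCF, against 235 and 253 CPM in ST. DHRS2 was thus lowest where drug and stimulus were combined, and its AL_DCF libraries lay below all others.

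DNAH3, which encodes a heavy chain of the dynein that moves cilia, had 18.4 and 15.5 CPM in AL_DCF, against 49.0 and 45.7 CPM in AL. It lies on chromosome 16 from 20933111 to 21159459, and its log2 fold change was −1.48 ± 0.12 (adjusted p = 0.000364, same test). The 4 static libraries held 36.2 and 28.9 CPM in ST_DCF and 28.6 and 26.9 CPM in ST, so DNAH3 was highest in AL and lowest in AL_DCF.

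MARCKSL1, TUBB3, TUBB2B and S100A10 fell by less than a factor of 2. MARCKSL1, an actin-binding protein, had 62.5 and 60.5 CPM in AL_DCF, against 89.7 and 87.6 CPM in AL (log2 fold change −0.53 ± 0.07, edgeR quasi-likelihood adjusted p = 0.0123), and lost the call without either AL replicate or AL_DCF replicate 2. The beta-tubulins TUBB3 and TUBB2B fell by 0.51 and 0.51 on the log2 scale. TUBB3 had 177 and 156 CPM in AL_DCF, against 228 and 246 CPM in AL. S100A10, the partner of annexin A2 at the plasma membrane, had 135 and 162 CPM in AL_DCF, against 222 and 217 CPM in AL (log2 fold change −0.56 ± 0.09). TUBB3, TUBB2B and S100A10 lost the call without either AL replicate and without either ST replicate, the tubulins also without AL_DCF replicate 2, and S100A10 without AL_DCF replicate 1.

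At lower levels, CCR4, a chemokine receptor, had 3.23 and 3.72 CPM in AL_DCF, against 7.80 and 7.52 CPM in AL. ATP1B2, a subunit of the sodium pump, had 6.52 and 6.78 CPM in AL_DCF, against 12.9 and 11.9 CPM in AL. COL26A1, a collagen, had 1.48 and 1.27 CPM in AL_DCF, against 4.81 and 3.54 CPM in AL. All 3 were called lower, with log2 fold changes of −1.14, −0.90 and −1.60, and all 3 lost the call without any single one of the 4 AL_DCF and AL libraries. RTEL1, a helicase of telomeres, fell by 0.68 on the log2 scale, but it shares its locus with the readthrough transcript RTEL1-TNFRSF6B, between which reads could be split. Its call was lost with the GC offset and without any single AL_DCF, AL or ST library.

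On the higher side, 13 of 18 genes were protein-coding. HDAC9, a histone deacetylase of class IIa, had 3.96 and 3.13 CPM in AL_DCF, against 1.25 and 1.40 CPM in AL. Its log2 fold change was 1.42 ± 0.19 (edgeR quasi-likelihood adjusted p = 0.0101), and its call was lost without either AL replicate. In the static libraries it had 9.56 and 9.38 CPM in ST_DCF and 9.91 and 10.9 CPM in ST. The AL_DCF libraries thus lay between AL and static culture.

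IL1RL1, the receptor of interleukin 33, was ordered in the same way. It had 10.3 and 7.66 CPM in AL_DCF, against 4.00 and 3.97 CPM in AL, and 20.9 and 14.4 CPM in ST_DCF, against 19.3 and 17 CPM in ST. The log2 fold change of AL_DCF against AL was 1.17 ± 0.20 (adjusted p = 0.0325, same test). The call was lost without AL_DCF replicate 1, either AL replicate or either ST replicate, and with the GC offset.

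CD68, a lysosomal membrane glycoprotein also used as a macrophage marker, was the higher gene with the smallest adjusted p, 0.00672. It had 67.2 and 60.4 CPM in AL_DCF, against 41.4 and 38.8 CPM in AL. The log2 fold change was 0.67 ± 0.08, and the call was lost without AL replicate 2. Of 7 leukocyte markers, CD68 among them, PTPRC, CD3E, LYZ and TYROBP were at or near 0, and the 3 measured summed to 75.2 and 67.5 CPM in AL_DCF and to 48.6 and 49.9 CPM in AL. Most of that sum was CD68 itself, and the other measured markers, CD14 and CD74, had log2 fold changes of −0.41 and −0.22 and were not called. In ST_DCF, CD68 had 68.9 and 65.4 CPM, against 54.5 and 56.1 CPM in ST.

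A further 10 protein-coding genes rose by smaller amounts. KMT2C, a methyltransferase of histone H3, had 51.2 and 55.6 CPM in AL_DCF, against 37.1 and 34.7 CPM in AL (log2 fold change 0.57 ± 0.09). ABL2, a tyrosine kinase acting on the cytoskeleton, had 109 and 112 CPM in AL_DCF, against 77.4 and 76.0 CPM in AL (0.52 ± 0.09). CD274, the ligand of the immune checkpoint receptor PD-1, had 44.3 and 41.3 CPM in AL_DCF, against 31.9 and 28.2 CPM in AL (0.51 ± 0.09). LPP, ZC3H12C, CREBRF, HERC1, FER, ETNK1 and LAMA1 rose by 0.44 to 0.58 on the log2 scale. Adjusted p-values of these 10 genes lay between 0.0187 and 0.0488 by edgeR's quasi-likelihood test. Each of the 10 lost its call without either AL replicate, either ST replicate or AL_DCF replicate 2, and all but KMT2C, LPP and HERC1 also without AL_DCF replicate 1.

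**Figure D3:**
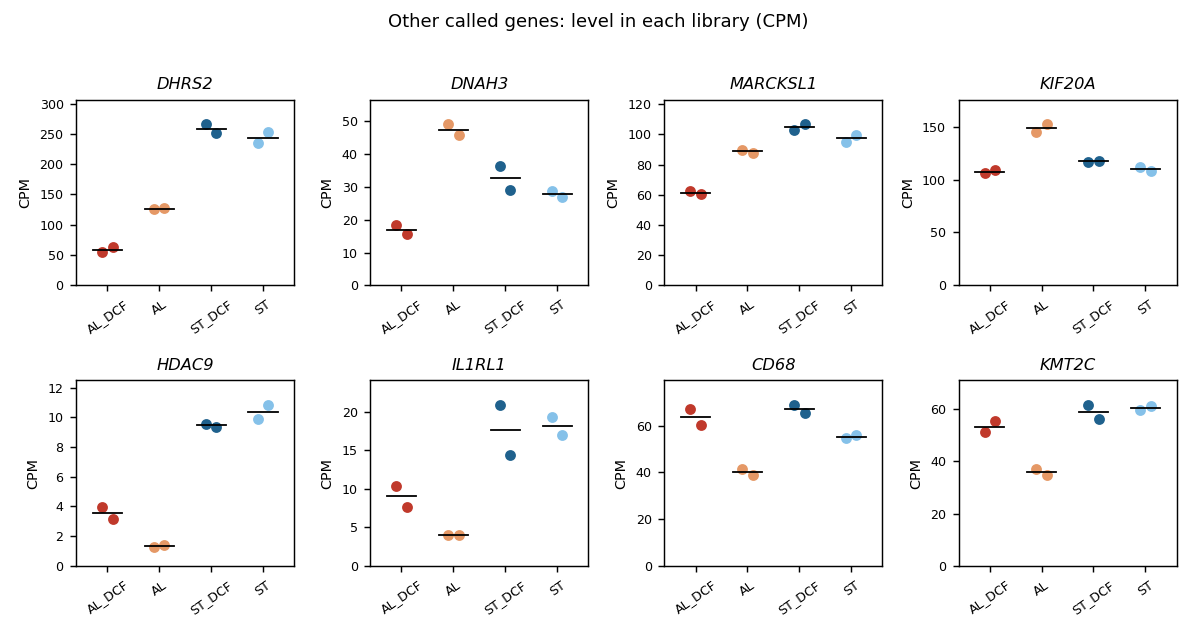
Level in CPM (vertical axes, from 0) of 4 lower genes (DHRS2, DNAH3, MARCKSL1 and KIF20A) and 4 higher genes (HDAC9, IL1RL1, CD68 and KMT2C), with 1 point for each library and a bar for the mean of 2 libraries. DHRS2 and HDAC9 had their highest levels in static culture, 235 to 266 CPM and 9.38 to 10.9 CPM, whereas DNAH3 was highest in AL with 49.0 and 45.7 CPM.

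Gene span went with direction. Of the 18 higher genes, 9 were in the longest of 5 equal bins by span, from 81292 bases. Of the 44 lower genes 23 were in the shortest, up to 6244 bases. A span was available for 17 of the 18 and for 42 of the 44. Among the lower genes, the 19 replication-type histone genes had a median span of 519 bases. The other 25, of which 23 had a span, had a median of 10945 bases, against 24505 over all genes tested. Over all genes, the median log2 fold change was −0.07 in the shortest and 0.08 in the longest bin. With an offset for gene span, 11 genes were higher and 47 lower, and 54 of the 62 were called again. The part of span in single calls was not tested beyond this.

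Some higher calls are uncertain in their counting. RNA45SN3, a copy of the ribosomal RNA precursor, had 777 and 1630.1 CPM in AL_DCF, against 357 and 342 CPM in AL (log2 fold change 1.78 ± 0.26, edgeR quasi-likelihood adjusted p = 0.017). The AL_DCF replicates differed by more than a factor of 2, and the call was lost without either AL replicate. Its near-identical copy RNA45SN1 had 358 and 240.4 CPM in AL_DCF and 256 and 231 CPM in AL, which overlap, and reads can be split among such copies. UBE2F-SCLY and LIMS3-LOC440895, readthrough transcripts that share exons with their neighbours, were called higher at 1.37 and 1.12 CPM and at 2.80 and 3.11 CPM in AL_DCF, against 0.156 and 0.0714 CPM and 0.179 and 0.642 CPM in AL. The calls of both were lost without AL replicate 1, that of UBE2F-SCLY also without AL replicate 2 and that of LIMS3-LOC440895 without AL_DCF replicate 2.

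Whether DCF acted differently with and without the stimulus was tested as the interaction, the log2 fold change of AL_DCF against AL minus that of ST_DCF against ST. In ST_DCF against ST, 1 gene passed (0.00573%), PTGES, a prostaglandin E synthase. That count was 0 without either AL replicate or ST_DCF replicate 1, 2 without either AL_DCF replicate, 3 without ST replicate 1 and 308 without ST_DCF replicate 2. In the interaction, 6 genes passed (0.0344%), all with a lower value under the stimulus, and all 6 were among the 62. They were H1-2 (−1.30 ± 0.13), DHRS2 (−1.19 ± 0.12), DNAH3 (−1.71 ± 0.18), H2BC21 (−1.22 ± 0.16) and the noncoding RNAs LOC107986257 (−1.79) and LOC105372338 (−1.94), with adjusted p-values from 0.00455 to 0.0323 by edgeR's quasi-likelihood test. For these 6 the effect of DCF thus differed with the stimulus by more than the replicate spread. For the rest of the 62 a difference was not shown. The count was 0 without AL replicate 2 or ST replicate 2, 2 without ST replicate 1, 3 without ST_DCF replicate 1, 51 without AL_DCF replicate 1 and 189 without ST_DCF replicate 2.

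Over the 46 histone genes, the median log2 fold change of ST_DCF against ST was −0.10, with 0 called, and the median of the interaction was −1.07, with 2 called. LOC105372338 had 16.3 and 13.1 CPM in AL_DCF, against 28.5 and 29.9 CPM in AL, and 9.38 and 6.15 CPM in ST_DCF, against 4.05 and 3.99 CPM in ST. LIMS3-LOC440895 was the called gene with the largest difference in static culture in the same direction, 3.43 on the log2 scale (adjusted p = 0.216).

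**Figure D4:**
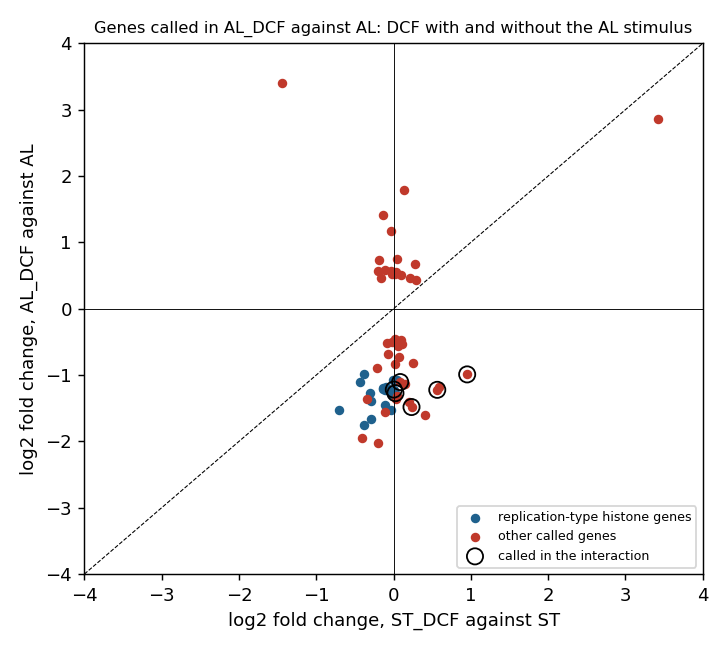
Log2 fold change of AL_DCF against AL (vertical axis) and of ST_DCF against ST (horizontal axis) for the 62 genes called in AL_DCF against AL. Blue points are the 19 histone genes, red points are the other called genes, circles mark the 6 genes called in the interaction, and the dashed line marks equal values. Most points lie near 0 on the horizontal axis, and the median over the 46 tested histone genes was −0.10 there, against −1.19 on the vertical axis.

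The mRNAs of the direct targets of the drug and of their pathway did not pass the test. Enzyme activity was not measured here. Of 22 genes of prostaglandin and eicosanoid synthesis and their receptors, 0 were called, and the median log2 fold change was −0.0042. Over all genes tested 0.355% were called, so a count of 0 does not set this list apart. An unadjusted p under 0.05 was reached by 2 of its genes on the higher and 2 on the lower side (6.32% and 6.24% of all genes). PTGS1 had 11.3 and 10.4 CPM in AL_DCF, against 10.9 and 9.73 CPM in AL, which overlap. PTGS2 had 7.50 and 4.66 CPM in AL_DCF, against 3.71 and 3.21 CPM in AL (log2 fold change 0.81 ± 0.28, adjusted p = 0.262). PTGES had 27.7 and 22.8 CPM in AL_DCF, against 20.1 and 22.8 CPM in AL, and 90.5 and 87.4 CPM in ST_DCF, against 46.1 and 49.8 CPM in ST. Its log2 fold change was 0.23 with the stimulus and 0.89 without (adjusted p = 0.409 and 0.0482), and the difference between these did not pass (−0.66, adjusted p = 0.189).

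Those genes named by the study that were taken up here were not called either. For most of them the study makes its comparison with static culture, on FPKM values and with other tests. For TGFB1 and SLC25A20 it describes a lower level in AL_DCF than in AL, the direction also found here. TGFB1, the ligand of a fibrotic pathway, had 116 and 110.5 CPM in AL_DCF, against 144 and 142 CPM in AL (log2 fold change −0.34 ± 0.07, adjusted p = 0.103). MUC1, a membrane mucin of the ocular surface, had 11.7 and 10.7 CPM in AL_DCF, against 17.6 and 18.9 CPM in AL (−0.70 ± 0.16, adjusted p = 0.112). SLC16A7, a monocarboxylate transporter, had 12 and 14.1 CPM in AL_DCF, against 8.61 and 10.0 CPM in AL (0.49 ± 0.14, adjusted p = 0.187). In these 3 the AL_DCF and AL libraries did not overlap, nor did they for CPT1A, SLC25A20, GSS and MUC16. Among all genes tested, both AL_DCF libraries lay above both AL libraries in 23.4% and below them in 20.7%. CPT1A and SLC25A20 of the carnitine shuttle had log2 fold changes of −0.25 and −0.30 (adjusted p = 0.315 and 0.29), IL6 of 0.34 (0.511), OCLN of 0.12, MUC16 of 0.19, GSS of −0.08, PIEZO2 of 0.14 and ACAT1 of 0.04. All adjusted p-values here come from edgeR's quasi-likelihood test, and DESeq2 called TGFB1 and MUC1 as well.

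Of 48 pathway lists, those other than the histones held at most 1 called gene each. Over all genes tested 0.355% were called, so a count of 0 or 1 sets no list apart, here and below. On the positive side, genes of NF-kB feedback and targets had a median log2 fold change of 0.22, with 16 of 20 positive and 9 with an unadjusted p under 0.05 on the higher side (6.32% of all genes had). BIRC3, an inhibitor of apoptosis induced by NF-kB, had 15.8 and 14.8 CPM in AL_DCF, against 11.6 and 8.28 CPM in AL (adjusted p = 0.142). Cytokines and chemokines had a median of 0.23, with 21 of 29 positive. CXCL8, which attracts neutrophils, had 71.3 and 40.2 CPM in AL_DCF, against 34.8 and 29.6 CPM in AL (log2 fold change 0.79, adjusted p = 0.162). Acute-phase and antimicrobial genes had a median of 0.24, with 12 of 16 positive, and LCN2, an iron-withholding protein, had 9.57 and 5.76 CPM in AL_DCF, against 3.26 and 2.95 CPM in AL (log2 fold change 1.30, adjusted p = 0.169). No gene of these 3 lists was called, and in all 3 AL_DCF replicate 1 was farther from AL than replicate 2, with medians of 0.31 and 0.12, 0.35 and 0.05, and 0.29 and 0.16.

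Interferon-stimulated genes had the highest median of the lists drawn, 0.34, with 32 of 37 positive and 0 called. Against the AL mean, their median was −0.07 in AL_DCF replicate 1 and 0.66 in AL_DCF replicate 2, and 0.19 and −0.21 in the AL replicates. OAS1, an antiviral enzyme, had 58.7 and 115 CPM in AL_DCF, against 65.7 and 42.4 CPM in AL, which overlap (adjusted p = 0.314). AL_DCF replicate 2 was thus the high library, and replicate 1 lay between the AL replicates.

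Feedback genes of ERK signalling had a median of 0.22, and 13 of 17 were positive. Against the AL mean, the median was 0.22 in AL_DCF replicate 1 and 0.07 in AL_DCF replicate 2. SPRY4, an inhibitor of that pathway, had 42.7 and 36.5 CPM in AL_DCF, against 31.5 and 31.9 CPM in AL (adjusted p = 0.253). Notch genes had a median of −0.21, with 15 of 20 negative and medians of −0.12 and −0.28 in AL_DCF replicates 1 and 2. JAG2, a Notch ligand, had 31.4 and 26.2 CPM in AL_DCF, against 35.4 and 41.9 CPM in AL (adjusted p = 0.169). Neither list held a called gene.

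Collagens and their crosslinking enzymes had a median of −0.12, with 11 of 27 at an unadjusted p under 0.05 on the lower side (6.24% of all genes had) and 0 called. COL5A3, a fibrillar collagen, had 66.2 and 79.0 CPM in AL_DCF, against 119.5 and 103 CPM in AL (log2 fold change −0.62, adjusted p = 0.0732). For COL1A1, 19.1 and 16.4 CPM in AL_DCF overlapped with 19.0 and 42.7 CPM in AL, where replicate 2 stood apart as it did for COL3A1. Fatty acid oxidation and the carnitine shuttle had a median of −0.06, with 17 of 23 negative, and PPAR receptors and targets one of −0.12, with 13 of 17 negative. ANGPTL4, a PPAR target that inhibits lipoprotein lipase, had 47.8 and 31.3 CPM in AL_DCF, against 73.3 and 64.3 CPM in AL (adjusted p = 0.211). No gene of these 3 lists passed the adjusted threshold.

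**Figure D5:**
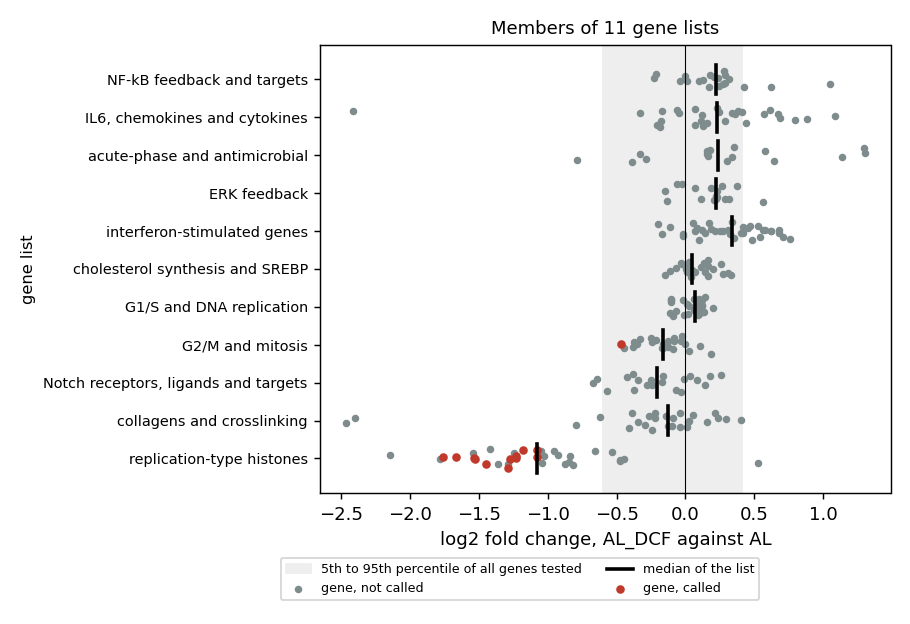
Log2 fold change of AL_DCF against AL (horizontal axis) for the tested members of 11 gene lists (rows), with 1 point for each gene, red where called, and a black bar at the median of the list. The grey band spans the 5th to the 95th percentile of all genes tested, −0.60 to 0.41. The median of the histone list lies outside the band at −1.08, whereas the other medians lie within it, between −0.21 and 0.34.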

How the data were processed

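RNA from 8 HCE-T cultures, 2 in each of AL_DCF, AL, ST_DCF and ST, was sequenced from stranded mRNA libraries. Per the labels and the methods, the authors used FastQC 0.11.7, Trimmomatic 0.38, HISAT2 2.1.0 (with Bowtie2 2.3.5.1 listed) and StringTie 2.1.3b on GRCh38, and removed low-quality transcripts with criteria that are not given in the sources used here. The deposited table holds raw read counts per gene. It also holds FPKM, TPM and log2 values (TMM-scaled CPM plus 1) computed by the authors, of which FPKM entered an alternative only. Deposited fold-change and p-value columns hold the authors' own comparisons and were not used, and 0 other per-sample columns were left out.

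Counts were filtered with filterByExpr, scaled by TMM and tested with edgeR 4.0.16 (quasi-likelihood, R 4.3.3) over all 8 libraries, with Benjamini-Hochberg adjustment at 0.05. The biological coefficient of variation was 9.48%. Totals of 32880479 to 46369412 counts keep counting error small for all but the lowest genes. With 2 libraries a group, an exact permutation test cannot go below p = 0.333. CPM are TMM-scaled, standard errors come from the test statistic, and positions and promoters are from RefSeq, in which 18207 genes matched. Transcript GC content is from GENCODE 29.

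Members and gene lists were chosen with earlier results of these data known. The genes named were the 15 highest and 15 lowest called genes with an average log2 CPM above 1, genes the study names, the drug targets PTGS1 and PTGS2 with PTGES, and, from each list, at most the 4 with the smallest p. Named outside this rule, after their values were seen, were DHRS2, MARCKSL1, TUBB2B, RTEL1, LAMA1, ATP1B2, CCR4, H1-10, H2AZ1, H2AW, SLBP, PAEP, RNA45SN1, the readthrough and noncoding genes, and the histone genes H2AC6, H2AC11, H2AC18, H2AC19, H2BC12, H2BC21, H4C14 and H4C15. Same-numbered AL_DCF and AL libraries did not deviate together (correlation −0.08). Alternatives used DESeq2 1.42.0, limma 3.58.1 with pseudocounts of 1 and 0.1, other scalings and filters, a replicate block, and fits without each library. Offsets for GC content and gene span (lowess, span 0.3) and thinning to 32880479 counts were chosen after seeing the data.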

Additional observations from a re-analysis of the deposited data

Results flagged for a closer look

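In 6 genes the difference in the effect of DCF between AL and static culture passed a test of its own (edgeR's quasi-likelihood test, interaction term, n = 2 libraries a group). How many genes passed depended on the method and on the libraries in the fit, as given below. The log2 fold change of AL_DCF against AL minus that of ST_DCF against ST was −1.714 for DNAH3, −1.297 for H1-2 and −1.192 for DHRS2 (adjusted p = 0.00455 each). It was −1.222 for H2BC21, −1.943 for LOC105372338 and −1.788 for LOC107986257 (adjusted p = 0.0323 each).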

How the results depend on the processing

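All 62 genes kept their direction in every setting that tested them. Total calls were 18 higher and 44 lower as reported, and DESeq2 gave 113 and 148 in all (17 and 44 of them shared), no expression filter 4 and 20, the 4 AL_DCF and AL libraries alone 3 and 27, and the exact test at the study's thresholds (unadjusted p) 73 and 262 in all (5 and 31 shared). On log2(FPKM + 1) limma gave 5 and 26, and on log2(FPKM + 0.1) 4 and 23. A fold of at least 2 left 5 higher, and the gene span offset 11. Leaving out 1 library gave 1 to 62 higher and 9 to 81 lower genes. The interaction count of 6 was 149 by DESeq2, 3 with no expression filter, 0 by limma with either pseudocount and 0 to 189 when 1 library was left out. It has no value for the exact test or the 4 libraries alone. The single ST_DCF against ST call became 73 by DESeq2, 266 by the exact test and 3 with the GC offset. It became 0 with no expression filter, the replicate block, either limma fit or a fold of at least 2, and 0 to 308 when 1 library was left out. Replicate numbers mark no known pairing. With the replicate block, 13 higher and 42 lower genes were called, and 8 in the interaction. The cause of these shifts was not tested.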
